A study of Mus musculus with 15 samples.

Results

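H3K27Me3, the trimethylated form of lysine 27 of histone H3, was mapped by chromatin immunoprecipitation and sequencing (ChIP-seq) in pancreatic islets of mice on a regular diet (RD) and of mice on a high-fat diet (HFD). The comparison rests on 1 list of called peaks for each diet, joined into regions wherever peaks overlapped by at least 1 bp on chromosomes 1 to 19. It held 28540 peaks, out of 111297 peaks in the 6 lists of the series, and these formed 18774 regions. All mice were of the CBA strain, the islets were released with collagenase and picked by hand, and neither group received O304, the AMPK activator given to another group of HFD mice. Around 600 pooled islets went into each immunoprecipitation, and the 2 replicates of a diet were merged before peaks were called, so no value has a replicate spread and no difference between the diets could be tested. Islets hold several endocrine cell types together with vessels, so that a change in the mark within cells cannot be told apart from a change in the cell mixture.

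H3K27Me3 is deposited by Polycomb repressive complex 2 and is typically spread over CpG-rich promoters of genes that are silent in the cell studied, above all regulators of development that belong to other lineages. In islets it is known to cover the Hox clusters and the transcription factors of neural, mesodermal and gut lineages. H3K27Ac, the acetylated form of the same residue, marks active promoters and enhancers, and a single histone tail cannot carry both.

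Examples of the sequence under the peaks are given from the reference to show what lay under gained, shared and lost peaks. They are the 250 bases upstream of the RefSeq start (GRCm38.p6) of genes whose whole stretch lay under the peak and held no annotated exon, taken by peak height outside repeat-rich sequence, with 1 chromosome left out of the choice. Efna3 (chr3:89321769-89322018, minus strand) and Myo5c (chr9:75231764-75232013, plus) were the highest such promoters gained in HFD, and Pou4f2 (chr8:78436648-78436897, minus) and Gsx2 (chr5:75075351-75075600, plus) the highest of these among gained developmental genes. Hoxd13 (chr2:74667975-74668224, plus) was the highest such Hox gene called in both diets, by its HFD value. Gm2897 (chr14:3049035-3049284, plus), C1s2 (chr6:124636086-124636335, minus) and Adamts9 (chr6:92943535-92943784, minus) were the highest of those lost in HFD. The last 2 are the central 150 bases, plus strand, of the intergenic repeat-rich regions with the highest −log10 q among those gained (chr3:35225044-35225193) and lost (chr6:90028073-90028222). Capitals mark each CpG, the dinucleotide that is dense in the promoters Polycomb occupies.
Efna3: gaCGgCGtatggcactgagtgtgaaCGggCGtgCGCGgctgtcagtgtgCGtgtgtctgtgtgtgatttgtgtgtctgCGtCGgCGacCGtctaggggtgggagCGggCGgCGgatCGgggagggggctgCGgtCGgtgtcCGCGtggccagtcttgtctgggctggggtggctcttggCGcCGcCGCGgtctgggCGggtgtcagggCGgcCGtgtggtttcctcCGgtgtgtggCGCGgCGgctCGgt
Myo5c: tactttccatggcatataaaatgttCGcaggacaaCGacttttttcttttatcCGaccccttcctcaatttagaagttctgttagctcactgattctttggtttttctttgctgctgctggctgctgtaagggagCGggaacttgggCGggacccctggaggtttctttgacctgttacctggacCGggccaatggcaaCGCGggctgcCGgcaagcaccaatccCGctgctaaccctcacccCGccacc
Pou4f2: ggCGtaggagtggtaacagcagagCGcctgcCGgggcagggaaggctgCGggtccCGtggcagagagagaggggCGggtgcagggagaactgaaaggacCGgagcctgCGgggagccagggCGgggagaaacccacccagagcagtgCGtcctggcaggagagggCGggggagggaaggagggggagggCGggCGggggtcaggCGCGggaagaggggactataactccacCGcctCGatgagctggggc
Gsx2: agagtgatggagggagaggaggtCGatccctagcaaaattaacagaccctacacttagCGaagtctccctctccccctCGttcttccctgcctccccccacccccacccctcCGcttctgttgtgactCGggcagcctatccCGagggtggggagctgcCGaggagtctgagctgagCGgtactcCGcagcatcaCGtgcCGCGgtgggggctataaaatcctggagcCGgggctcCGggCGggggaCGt
Hoxd13: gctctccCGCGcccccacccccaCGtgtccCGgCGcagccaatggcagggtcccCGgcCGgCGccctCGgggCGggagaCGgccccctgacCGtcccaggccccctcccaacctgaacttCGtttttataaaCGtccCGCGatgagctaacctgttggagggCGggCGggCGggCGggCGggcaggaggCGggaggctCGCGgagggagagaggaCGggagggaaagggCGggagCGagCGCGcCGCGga
Gm2897: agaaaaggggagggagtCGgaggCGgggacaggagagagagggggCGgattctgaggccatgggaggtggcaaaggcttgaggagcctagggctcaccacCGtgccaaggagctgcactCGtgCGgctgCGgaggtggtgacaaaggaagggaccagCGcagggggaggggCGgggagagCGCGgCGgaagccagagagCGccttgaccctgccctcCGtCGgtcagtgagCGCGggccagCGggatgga
C1s2: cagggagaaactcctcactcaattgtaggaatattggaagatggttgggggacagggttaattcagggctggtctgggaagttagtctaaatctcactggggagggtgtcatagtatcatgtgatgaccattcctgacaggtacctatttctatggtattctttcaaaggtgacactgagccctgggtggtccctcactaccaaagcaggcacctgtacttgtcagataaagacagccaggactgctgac
Adamts9: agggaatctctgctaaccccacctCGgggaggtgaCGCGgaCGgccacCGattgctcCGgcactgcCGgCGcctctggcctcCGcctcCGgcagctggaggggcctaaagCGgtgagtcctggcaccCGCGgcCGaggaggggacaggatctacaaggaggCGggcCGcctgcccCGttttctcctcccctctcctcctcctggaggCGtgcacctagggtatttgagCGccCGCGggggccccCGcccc
Repeat-rich gained: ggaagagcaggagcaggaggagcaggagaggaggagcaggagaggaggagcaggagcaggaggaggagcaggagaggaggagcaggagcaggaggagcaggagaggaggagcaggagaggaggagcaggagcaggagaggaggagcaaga
Repeat-rich lost: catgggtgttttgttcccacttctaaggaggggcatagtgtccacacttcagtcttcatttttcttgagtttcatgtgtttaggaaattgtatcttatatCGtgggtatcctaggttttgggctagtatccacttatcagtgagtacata

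Efna3 and Hoxd13 held 31 CpG each in these 250 bases, Pou4f2 17, Gsx2 16 and Myo5c 11. Of the lost promoters Adamts9 held 22, Gm2897 18 and C1s2 0, so the examples of both kinds overlapped in CpG count. Over the 32851 upstream sequences in the table the median was 6, with quartiles of 2 and 16. Among genes with an entry, the densest upstream sequence had a median of 14 CpG for promoters gained in HFD (474 of 666 genes), 15 for those called in both diets (999 of 1393), 11 for those lost (187 of 261) and 11 for those with no peak. The gained repeat-rich sequence is a purine-rich repeat with 0 CpG, and the lost one held 1.

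Both lists were of similar size but differed in depth and in the weakest peak they could hold. The RD list held 14286 peaks over 13.0 Mb and the HFD list 14254 over 14.9 Mb on chromosomes 1 to 19. Of 137963173 RD fragments 74870300 were kept after duplicate removal, and of 120389054 HFD fragments 54166902, so duplicates made up 45.7% and 55.0%. Peak height is given here as pileup over uniform background, that is the fragments stacked over a base divided by the number an even spread of the kept fragments would give (8.77 in RD and 6.46 in HFD). The lowest peak stood at 2.74 in RD and at 3.10 in HFD. Depth and the duplicate share thus move with diet, and their part in the differences below was not tested.

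H3K27Me3 was called at the same place in both diets in about as many regions as it was called in 1 diet. Of the 18774 regions, 9256 (49.3%, 95% Wilson interval 48.6 to 50.0) were shared, 4830 (25.7%, 25.1 to 26.4) were called in HFD alone and are termed gained, and 4688 (25.0%, 24.4 to 25.6) were called in RD alone and are termed lost. The intervals cover counting error only. Shared regions were longer (median 919 bp) than gained (429 bp) or lost ones (364 bp). Most lost regions were weak, since 3156 of the 4688 (67.3%) stood below the lowest value in the HFD list and could not have been called there at the same height. Counting only peaks of at least 3.10 in both lists gave 7709 gained and 1532 lost regions. This limit removes RD peaks alone, so it could only favour gained regions. A minimum −log10 q of 5, which asks for a greater height in the shallower HFD list, gave 1322 gained and 1851 lost, so the balance over all regions turned with the limit. Under either limit, shared regions where the peak of 1 diet fell below it also count as gained or lost. Of the 4830 gained and 4688 lost regions themselves, 361 and 544 reached a −log10 q of 5.

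The balance between gained and lost regions differed by sequence class. At promoters, within 1000 bp of the start of a protein-coding transcript, and in sequence under 50% repeat, 717 regions were gained and 271 lost beside 1373 shared. Outside promoters and under 50% repeat, 1577 were gained and 1162 lost. Where at least 50% of the bases were repeat-masked the order was the opposite, with 2536 gained and 3255 lost. Both orders turned where H3K27Ac was called in both diets, with 73 gained and 104 lost promoter regions under 50% repeat and 156 gained and 80 lost repeat-rich regions. Without H3K27Ac in either diet the numbers were 530 and 126 at promoters and 2277 and 2964 in repeat-rich sequence. Promoters made up 15.1% of gained regions (14.1 to 16.2) and 6.10% of lost ones (5.45 to 6.82), and repeat-rich sequence 52.5% (51.1 to 53.9) and 69.4% (68.1 to 70.7). By chromosome the gained share ran from 20.96% on chromosome 3 to 35.1% on chromosome 11, and the lost share from 19.6% on chromosome 11 to 31.4% on chromosome 17.

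**Figure D1:**
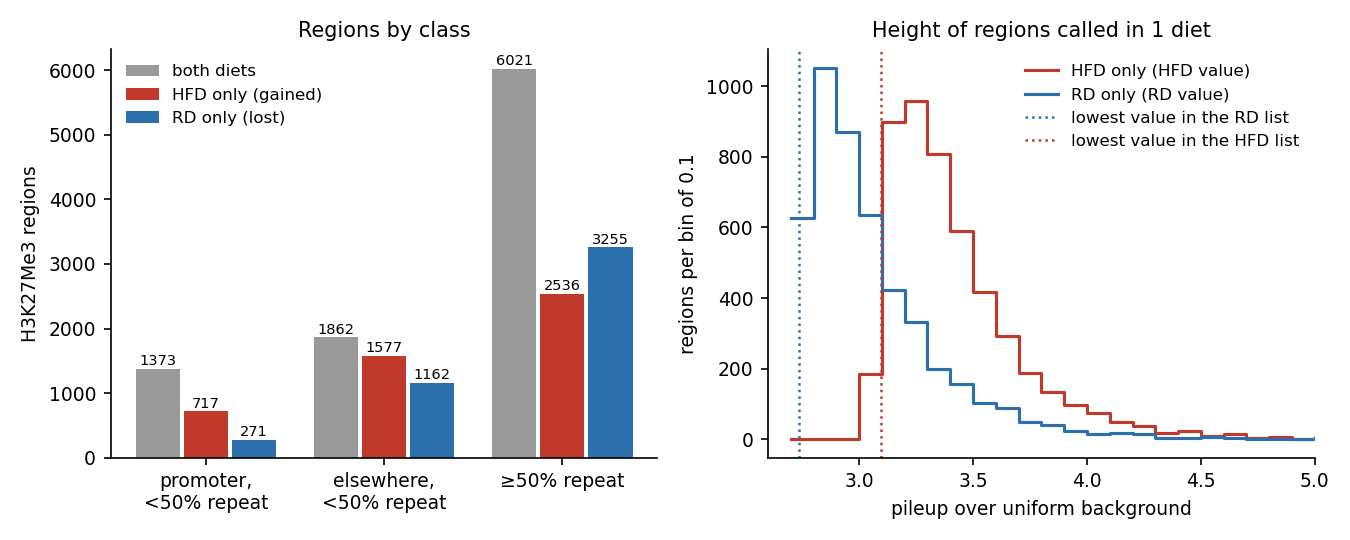
Left, number of H3K27Me3 regions (y axis) called in both diets, gained or lost, in 3 sequence classes (x axis). Right, number of regions (y axis, bins of 0.1) by pileup over uniform background (x axis, no unit) for gained regions in HFD and lost regions in RD, with dotted lines at the lowest value of each list (2.74 and 3.10). Gained regions exceed lost ones 717 to 271 at promoters and fall below them 2536 to 3255 in repeat-rich sequence.

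Across the shared regions H3K27Me3 stood slightly higher over background in HFD. The HFD list held no peak below 3.10, so a shared region below that value in RD could only stand higher in HFD. The median ratio of HFD to RD was 1.12. Only the 1.5-fold counts below are also given after division by it, and counts of values higher in HFD are not scaled. The median was 1.21 at promoters under 50% repeat (96.7% of 1373 above 1), 1.14 elsewhere under 50% repeat and 1.101 in repeat-rich sequence (78.5% above 1). Bases covered in shared promoter regions went from 2.36 Mb in RD to 3.44 Mb in HFD, a factor of 1.46, and 79.2% of these regions had more bases under HFD peaks. In shared repeat-rich regions coverage was 5.66 Mb in RD and 5.45 Mb in HFD, and 45.0% were wider in HFD. Where neither diet had H3K27Ac, shared promoter regions covered 1.07 Mb in RD and 1.94 Mb in HFD, a factor of 1.82. Those with H3K27Ac in both diets covered 0.974 and 0.995 Mb.

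**Figure D2:**
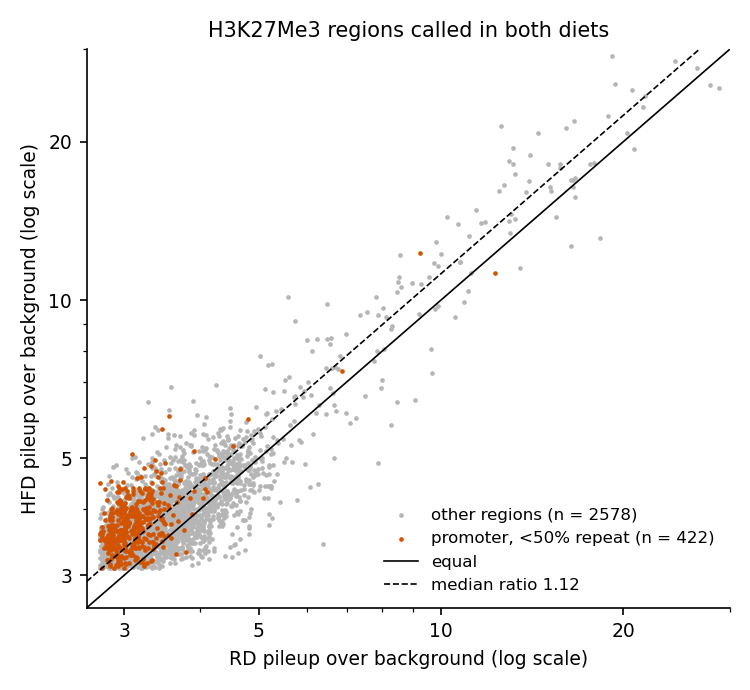
Pileup over uniform background in RD (x axis) and HFD (y axis), both on log scales, for 3000 of the shared regions drawn at random, with promoter regions under 50% repeat in orange. The solid line marks equal values and the dashed line the median ratio of 1.12. Regions outside the range of the axes are not shown. Over all shared regions, 96.7% of the promoter regions lie above the solid line. Regions below 3.10 in RD, the lowest value of the HFD list, can only lie above it.

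Few shared regions differed by 1.5-fold or more. At least 1.5-fold higher in HFD were 134 of 9256 regions (1.45% of all shared regions) and at least 1.5-fold lower 4 (0.0432%). After division by the median ratio these became 25 and 31, so the excess of higher regions did not outlast that scaling. Of the 134, 79 were repeat-rich and 20 lay at promoters. The largest ratio, 2.04, belonged to an intergenic region at chr8:97215046-97215459 of which 96.4% was repeat, with 3.26 in RD and 6.65 in HFD. The 4 lower regions were all repeat-rich, and the lowest ratio, 0.539, lay within Luzp2 but outside promoters at chr7:55119944-55121036, with 6.39 in RD and 3.44 in HFD.

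At the level of genes, HFD islets had H3K27Me3 at more promoters than RD islets. Of 20722 protein-coding genes, 1393 had a promoter peak in both diets (6.72% of all genes), 666 in HFD alone (3.21%) and 261 in RD alone (1.26%). All percentages of gene groups below are to be read against these background shares. The 666 gained promoters had a median height of 3.41 over background in HFD and a median peak length of 760.5 bp, and the 261 lost ones had 2.92 in RD and 351 bp. At 36 gained promoters the HFD peak ran on to an RD peak that lay outside the promoter window. Within 5 kb of the starts, 114 of the 666 gained promoters had an RD peak, and 36 of the 261 lost ones an HFD peak. At a common limit of 3.10 there were 1378 gained and 53 lost promoters, and peaks with a −log10 q of 5 or more gave 352 and 85. These counts include promoters called in both diets where the peak of 1 diet fell below the limit. Of the 666 gained and 261 lost promoters themselves, 49 and 14 reached a −log10 q of 5. Without peaks that overlapped an H3K27Ac peak of the same diet there were 525 gained and 385 lost. That removal was made diet by diet, so a shared promoter with H3K27Ac in HFD alone could turn into a lost one. Of the 1393 shared promoters 240 had H3K27Ac in HFD alone and 22 in RD alone. Gained outnumbered lost promoters under each of these settings. The limit of 3.10 removed RD peaks alone, so it could only raise the gained and lower the lost count.

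Promoters gained and lost also differed in the other mark. H3K27Ac was absent in both diets at 448 of the 666 gained promoters (67.3%), at 100 of the 261 lost (38.3%) and at 809 of the 1393 shared ones (58.1%). Among genes with no H3K27Me3 peak at the promoter it was absent at 42.3%. Of the lost promoters 128 (49.0%) had H3K27Ac in both diets, against 110 (16.5%) of the gained. The separately called list of HFD mice given O304 held H3K27Me3 at 68.3% of gained promoters (64.7 to 71.7), at 35.2% of lost (29.7 to 41.2) and at 1.83% of genes with no peak in either diet. Over all regions the shares were 50.3% of gained (48.9 to 51.7) and 52.3% of lost (50.9 to 53.8). The O304 list held more H3K27Me3 peaks than either list compared here, and lost promoters had lower and shorter peaks than gained ones. The part of list length and peak height in these shares was not tested.

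A switch between marks was called at few promoters. Of the gained promoters 9 had H3K27Ac in RD and not in HFD, and of the lost ones 23 had H3K27Ac in HFD and not in RD. The 9 were Lypd6b, Prrg4, C1s1, Oat, Mcam, Plau, Ttll8, Map6d1 and Hrasls, named after their values were seen. At Oat, ornithine aminotransferase, H3K27Ac in RD stood at 2.67 and H3K27Me3 in HFD at 3.14, near the HFD limit of 3.10. Slc1a1, a glutamate transporter, was the strongest of the opposite kind, with H3K27Me3 at 3.45 in RD alone and H3K27Ac at 3.11 in HFD alone.

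The strongest gained promoter was that of Efna3, a membrane-bound ephrin ligand, where a peak of 4888 bp (chr3:89317749-89322636) stood at 4.65 in HFD. It was followed by Myo5c, an unconventional myosin (4.59), and Hoxa4, a homeobox factor of body patterning (4.48). St8sia2, a polysialyltransferase of neurons, reached 4.37 and the cell survival gene Bcl2 4.29. Gm10251 (4.27) and Fjx1 (4.23) were also among the highest. Promoter H3K27Ac was called in HFD alone at Efna3 and Myo5c and in both diets at St8sia2, Bcl2 and Fjx1. At Hoxa4 and Gm10251 it was called in neither diet. At Efna3, St8sia2 and Fjx1 the HFD peak joined an RD peak outside the promoter window, so that no separate gained region was formed there. RD peaks covered 2225, 233 and 425 bp within 5 kb of their starts. Among lost promoters Naf1, a factor of box H/ACA ribonucleoprotein assembly, was the highest at 4.52 in RD over 536 bp (chr8:66860373-66860908). Gm9495 stood at 4.14, and Nlrc3, an inhibitor of innate immune signalling, at 3.91 over 1715 bp. Eif3j2 (3.83), Gm11562 (3.67), Sp100 (3.64), Spata3 (3.62) and Slc1a1 (3.45) followed. Naf1 had promoter H3K27Ac in both diets, at 5.15 in RD and 5.92 in HFD. Of the other lost promoters named here only Slc1a1 had H3K27Ac, in HFD alone. Sp100 belongs to a family of near-identical neighbours and Eif3j2 has a close copy, so their fragments may be shared with other loci.

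Over the 1393 promoters marked in both diets the median ratio of HFD to RD was 1.21, and 1342 (96.3%) stood above 1. The HFD list held no peak below 3.10, while the median RD height of these promoters was 3.09. A promoter with an RD height below 3.10 could only give a ratio above 1, here and in the gene groups below. The ratio sets the highest promoter peak of each diet side by side. At 1330 genes these peaks overlapped, with a median ratio of 1.21, and at 63 they lay apart. The genes named here were the extremes of the 532 that were under 50% repeat and had a −log10 q of at least 5 in 1 diet or both, a choice that itself favours large ratios. Pou3f1, a POU-domain factor of neural and Schwann cells, had the largest ratio, 1.83, with 2.75 in RD and 5.04 in HFD, and 2169 and 5022 bp under peaks around its start. Ctnnb1, which encodes β-catenin, followed at 1.79 (3.32 and 5.94). Its HFD peak began 26.1 kb after the first start, by a start near the end of the gene. Gm21188 and Gm36079 shared 1 peak at 1.74, Zar1, an oocyte factor, stood at 1.70 and the potassium channel gene Kcnn1 at 1.69. The smallest ratios were 0.823 at Gm45844, 0.853 at Gm47995, 0.877 at Sumo3, 0.899 at Col2a1, 0.913 at Gm5662 and 0.918 at Glp1r. Glp1r encodes the receptor of the incretin GLP-1. Its peak stood at 3.71 over 2035 bp in RD and at 3.41 over 1306 bp in HFD.

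Genes that define the islet seldom had a promoter peak, as held for all genes, of which 11.2% had one in either diet. Of the 8 hormone genes, among them Ins1, Ins2, Gcg and Sst, 0 had a promoter peak in RD or HFD. Of 18 islet identity genes Glp1r alone had one (5.56%), which is near the share of all genes marked in both diets (6.72%), and Pdx1, Nkx6-1, Mafa, Nkx2-2 and Pax6 had none in either diet. As a check of the tissue label, 6 of 8 islet markers had promoter H3K27Ac in each diet, against 0 of 4 acinar, 0 of 3 immune, 0 of 2 endothelial and 0 of 3 mesenchymal markers and 1 of 3 ductal ones. The counts were the same in RD and HFD. Near Nkx6-1, a β-cell homeobox factor, the only region within 150 kb was shared and lay 29.6 kb downstream of its start, at 3.18 in both diets.

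Regulators of the alpha and delta cell and of pancreatic progenitors were marked in both diets. Of 16 measured genes 9 had a promoter peak in both (56.3%), 0 were gained and 0 were lost. All 9 stood higher in HFD, as did 96.3% of all promoters marked in both diets, with ratios from 1.17 at Gata4 to 1.38 at Hhex, the delta cell factor, which went from 3.04 to 4.22. Around the start of Irx2, an alpha cell factor, peaks covered 2036 bp in RD and 7470 bp in HFD, and around that of Onecut1, a duct and progenitor factor, 2332 bp and 5411 bp. Sox9, a factor of ducts and progenitors, stood at 3.01 in RD and 3.85 in HFD.

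Non-islet developmental transcription factors were the group with the most H3K27Me3 after the Hox genes. Of 142 genes 114 had a promoter peak in both diets (80.3%), 19 were gained (13.4%) and 0 lost. The 19 were Pax7, En2, Lhx5, T, Gata2, Gsx2, Nkx2-5, Twist2, Hand2, Foxf1, Sox1, Sox14, Sox18, Tlx1, Barx1, Barx2, Cdx1, Irx4 and Pou4f2, and H3K27Ac was called at none of them in either diet. Gsx2, a forebrain patterning factor, had the longest gained region of all, 7169 bp at chr5:75070142-75077310, at 3.48. Nkx2-5, a heart factor, stood highest of the 19 at 3.91 (chr17:26842502-26846006), followed by Pou4f2, a factor of retinal ganglion cells, and Barx1, a factor of stomach and face, both at 3.83. Hand2, a heart and limb factor, reached 3.79 over 2953 bp. At Gata2, Barx1, Barx2, Irx4 and Pou4f2 the HFD peak joined an RD peak outside the promoter window, so that no separate region was formed there. RD peaks also lay close to others of the 19 without joining, for example 1108 bp within 5 kb of the starts of En2 and 1585 bp at Lhx5. The other members of the 19 ranged down to 3.14 at T and Twist2, close to the HFD limit.

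Of the 114 transcription factors marked in both diets, 112 stood higher in HFD against 1342 of 1393 over all promoters, with a median ratio of 1.25 against 1.21 over all promoters marked in both. At 103 of them the highest peaks of the diets overlapped, with a median of 1.24 and 101 above 1. The largest ratios among these were 1.51 at Foxc1, a mesenchymal factor (2.93 in RD and 4.41 in HFD), and 1.51 at Bhlhe22, a neural factor (2.87 and 4.33). Around its start Foxc1 had 4458 bp under peaks in RD and 8071 bp in HFD. At Nr2f2 (2.84 and 4.33) the peaks of the diets lay apart. The exceptions were Olig3 (3.77 and 3.61) and Atoh1 (3.56 and 3.51), both neural. Around the starts, from 5 kb before the first to 5 kb after the last, 134 of the genes held peak bases, and 129 held more in HFD and 5 more in RD. The median was 2177.5 bp in RD and 4844 bp in HFD. Over all genes with any such bases, 2279 of 3416 held more in HFD and 1115 more in RD, with medians of 519 and 894 bp.

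**Figure D3:**
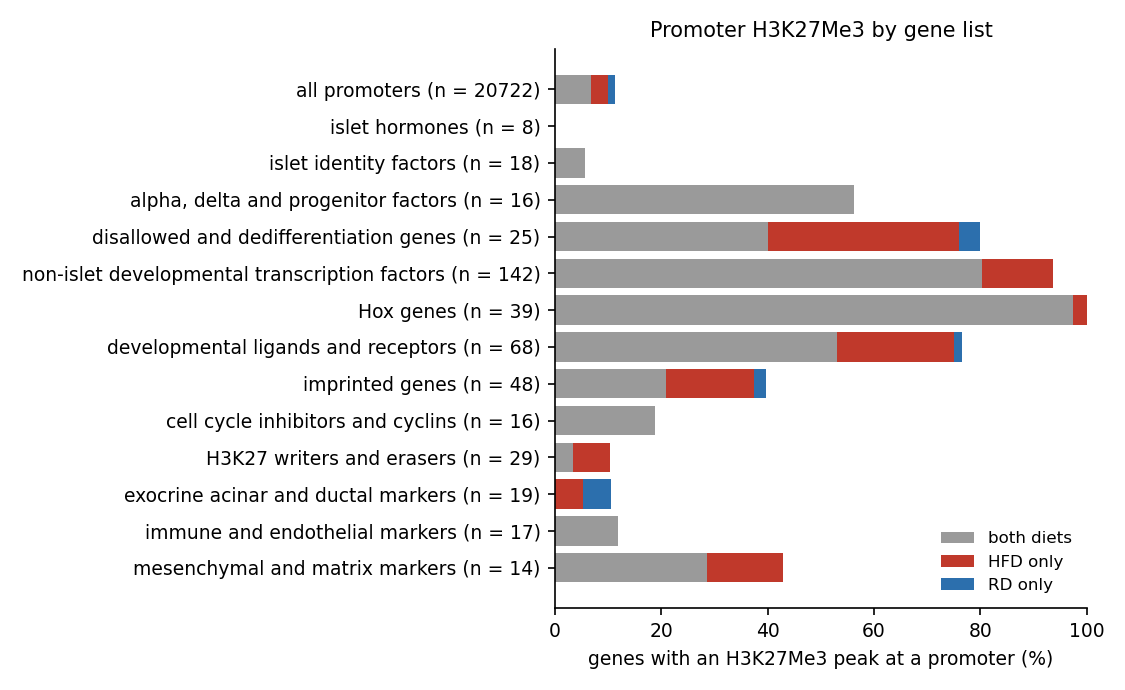
Share of genes (x axis, percent) in each group (y axis, with the number measured) that had an H3K27Me3 promoter peak in both diets, in HFD alone or in RD alone. All 20722 genes are at the top with 6.72%, 3.21% and 1.26%. Transcription factors, Hox genes and developmental ligands are marked mostly in both diets, and hormone genes have no bar.

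All 39 Hox genes on these chromosomes were marked in HFD and 38 in RD, with Hoxa4 the exception. At Hoxa4 no RD peak lay within 5 kb of the start, and the HFD peak at chr6:52191858-52193175 stood at 4.48. The 38 genes marked in both all stood higher in HFD, beside 96.3% of all promoters, with a median ratio of 1.21 as over all promoters, from 1.02 at Hoxc4 (3.28 and 3.34) to 1.44 at Hoxc13 (2.86 and 4.12). Hoxd13, a limb and hindgut factor, stood at 3.17 in RD and 4.39 in HFD. Neighbouring genes share peaks, since Hoxb5 and Hoxb6 lay under 1 HFD peak of 6652 bp and Hoxb7 and Hoxb8 under 1 of 6323 bp. Hoxc8 alone of the 39 had fewer peak bases around its start in HFD (1251 bp) than in RD (2400 bp).

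Across the 4 clusters the covered length differed more than the height. Peaks covered 23.7 kb of the Hoxa window in RD and 52.9 kb in HFD, 20.4 and 50.6 kb of Hoxb, 12.8 and 45.2 kb of Hoxc, and 22.3 and 46.3 kb of Hoxd. The length-weighted mean height over background was 3.18 and 3.80 in Hoxa, 3.09 and 3.79 in Hoxb, 3.13 and 3.67 in Hoxc, and 3.26 and 4.03 in Hoxd. Covered length thus stood 2.23, 2.49, 3.52 and 2.07 times higher in HFD and mean height 1.197, 1.22, 1.17 and 1.24 times. With RD peaks below 3.10, the lowest value of the HFD list, left out, RD peaks covered 13.4, 8.27, 6.60 and 17.5 kb. No H3K27Ac peak was called in any of the 4 windows in either diet.

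**Figure D4:**
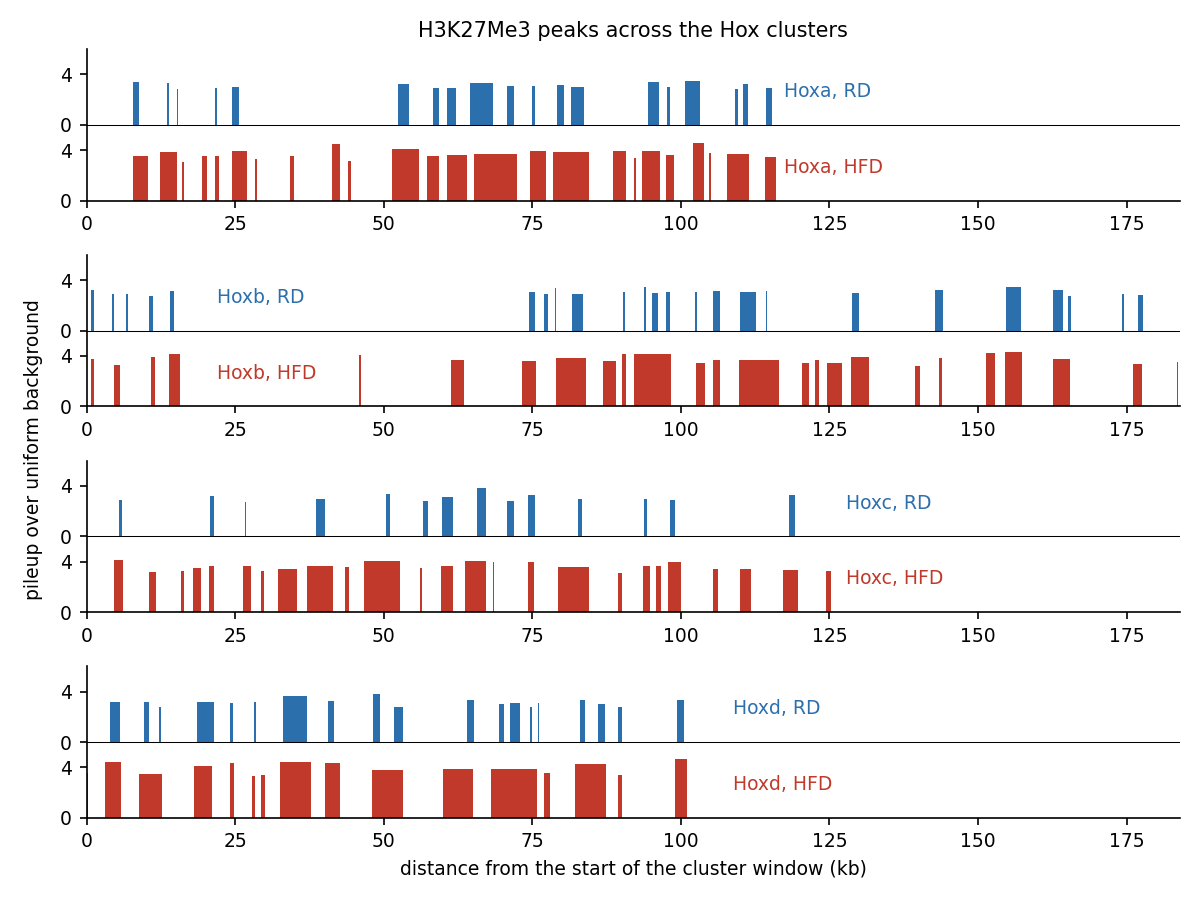
H3K27Me3 peaks in the Hoxa, Hoxb, Hoxc and Hoxd windows, which run from 5 kb before to 5 kb after the outermost genes, plotted by distance from the window start in kb (x axis). Bar width is peak length and bar height is pileup over uniform background (y axis, restarting at 0 for each diet), RD in blue and HFD in red. HFD peaks cover 45.2 to 52.9 kb and RD peaks 12.8 to 23.7 kb of a window.

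Secreted developmental ligands and their receptors were partly marked in both diets and partly gained. Of 68 genes 36 were marked in both diets, 15 were gained (22.1%) and 1 was lost. The gained genes were Wnt2, Wnt3, Wnt7b, Wnt8b, Wnt9a, Shh, Bmp4, Bmp6, Fgf17, Fgf18, Sfrp4, Dkk2, Lefty2, Fzd1 and Fzd10, ligands, inhibitors and receptors of the Wnt, hedgehog, BMP, FGF and Nodal pathways. Wnt7b stood highest at 4.02 over 640 bp. Shh, whose absence from the pancreatic bud permits pancreas formation, had a peak of 2710 bp at 3.53 (chr5:28463711-28466420) and no RD peak within 5 kb. Bmp4 had one of 3765 bp at 3.52, which joined an RD peak outside the promoter window, as did the peak of Lefty2. Wnt3a was the lost gene, at 2.88 in RD, below the HFD limit, and HFD peaks of 759 bp lay within 5 kb of its start. All 36 genes marked in both stood higher in HFD, beside 96.3% of all promoters, up to 1.43 at Ptch1, the hedgehog receptor (3.03 and 4.34).

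**Figure D5:**
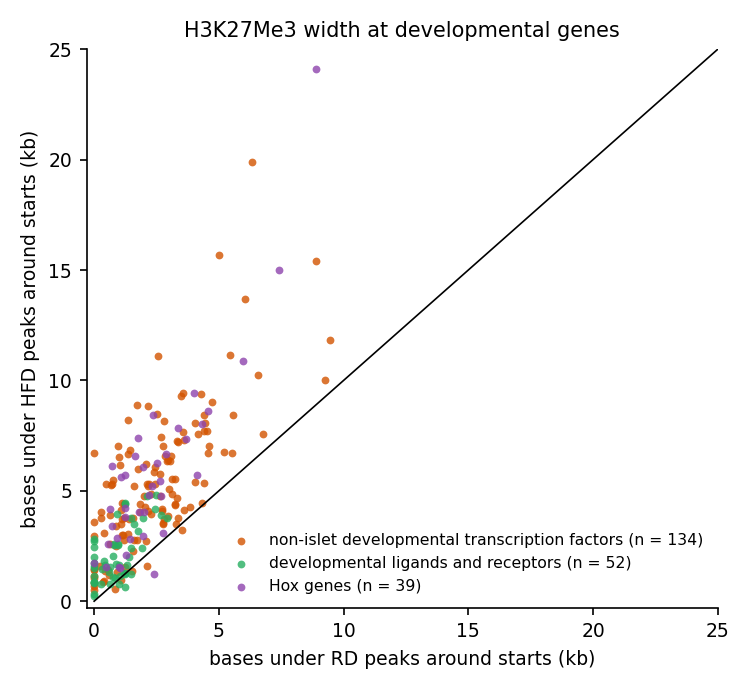
Bases under H3K27Me3 peaks in RD (x axis, kb) and HFD (y axis, kb) from 5 kb before the first to 5 kb after the last start of each gene, 1 point a gene with any such bases. The line marks equal values. Most transcription factors (129 of 134), ligands and receptors (48 of 52) and Hox genes (38 of 39) lie above it. Windows of neighbouring genes overlap.

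Genes that β-cells normally keep low (disallowed genes) and genes linked to dedifferentiation had the highest gained share among the lists, a difference that was not tested. Of 25 genes 10 were marked in both diets, 9 were gained (36.0%) and 1, Cd302, was lost. Acot7, an acyl-CoA thioesterase, stood highest of the gained at 3.75 over 2624 bp (chr4:152176880-152179503), with H3K27Ac called there in HFD alone. Lmo4 and Yap1, transcriptional regulators, stood at 3.57 each, Mycl at 3.46, the serotonergic factor Fev at 3.44, the peptide hormone gene Cck at 3.38, the neuronal repressor Rest at 3.31, Zfp36l1 at 3.30 and Oat at 3.14. The −log10 q of the 9 ran from 2.40 at Oat to 4.52 at Acot7, so none reached 5. RD peaks covered 416 bp within 5 kb of the starts of Lmo4 and 312 bp at Zfp36l1. Mycl, Rest, Lmo4 and Yap1 also had promoter H3K27Ac in both diets, and the Yap1 and Mycl peaks measured 317 and 362 bp. Cd302 stood at 2.99 in RD, below the HFD limit.

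Ldha, lactate dehydrogenase A and a classic disallowed gene, was marked in both diets with more bases in HFD. At the start the region chr7:46840839-46842427 stood at 2.74 over 539 bp in RD and 3.22 over 1589 bp in HFD. A further region at chr7:46845704-46850039, near a downstream start, stood at 3.20 over 1591 bp and 3.69 over 4336 bp. A gained region of 2508 bp lay 2.89 kb upstream at 3.53. Aldh1a3, a marker of dedifferentiated β-cells, stood at 2.93 over 1030 bp in RD and 3.27 over 772 bp in HFD (chr7:66426913-66428091), and H3K27Ac was called at its promoter in HFD alone. Shared regions also lay 83.6 and 114.0 kb upstream of Aldh1a3, at 4.94 and 5.07 and at 4.62 and 4.70, and both were 100.0% repeat.

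Imprinted genes, which are expressed from 1 parental allele, were marked in part. Of 48 genes 10 were marked in both diets, 8 were gained (16.7%), namely Calcr, Grb10, Mkrn3, Atp10a, Gnas, Peg12, Kcnk9 and Ascl2, and 1, Magel2, was lost. Kcnk9, a potassium channel, stood highest of the gained at 3.58 over 3033 bp. Mkrn3, Peg12 and Magel2 lie close together, and Magel2 stood at 2.91 in RD, below the HFD limit. Klf14, a transcription factor, was at 4.23 in RD and 5.26 in HFD, and Igf2, a growth factor, at 2.91 and 3.67. Peg10 and Sgce share 1 peak, at 2.91 over 1618 bp in RD and 3.25 over 797 bp in HFD.

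The remaining lists held genes of the cell cycle, chromatin and other cell types, of which 10.3% to 42.9% had a promoter peak in either diet, against 11.2% of all genes. Of 16 cell cycle genes 3 were marked in both diets, Cdkn2a (3.14 and 4.02), Cdkn1c (2.85 and 3.59) and Cdk6 (3.38 and 3.84), the first being the locus of p16 and p19 that restrains β-cell division with age. Of 29 writers, readers and erasers of the mark, Phf19 was among those gained, at 3.43, and Cbx8, a Polycomb subunit, was marked in both (3.32 and 3.79). Of 14 mesenchymal genes Col1a2 and Col4a1 were gained at 3.58 and 3.43 and 4 were marked in both. Of 17 immune and endothelial genes 2 were marked in both, Kdr and Flt1. Of 19 exocrine genes Nr5a2 was gained (3.74) and Rbpjl, an acinar factor, was lost (2.86). Of 1127 olfactory receptor genes 4 were marked in both, 2 gained and 4 lost, and of 327 vomeronasal receptor genes 0 had a peak. Of 67 histone genes 5 were marked in both, 9 gained and 6 lost.

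Of the 5 longest gained regions 4 lay at a promoter, and of the 5 longest lost ones 0 did. After that of Gsx2 came 4257 bp beside Gata3, a factor of T cells and ear (chr2:9893290-9897546, 3.40), 3961 bp at Hmx2, an ear and brain homeobox factor (chr7:131546101-131550061, 3.43), 3696 bp at Shc3 (3.49) and 3691 bp at Anks1b (3.44). The longest lost regions measured 4372 bp (chr12:20234083-20238454), 3651 bp, 3403 bp, 2741 bp and 2691 bp, stood between 2.78 and 3.27, and 3 of the 5 were mostly repeat.

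Regions over 5 kb numbered 295, of which 294 were shared, 1 was gained and 0 were lost. Of these, 168 also had H3K27Ac called in both diets. The longest, 124535 bp at chr8:20318219-20442753, stood at 6.86 in RD and 7.34 in HFD, with H3K27Ac called in both diets, and several of the longest lay in the same stretch of chromosome 8. One of 87127 bp, 79.8% repeat, at chr8:123537315-123624441 stood at 12.6 and 21.4. Of the 294 shared ones, 179 had more bases under HFD peaks, and the median width ratio was 1.05. Among the 295 were 86 at promoters without H3K27Ac in either diet, 1 of them gained. Of these 86, 85 held more bases under HFD peaks, and the shared ones had a median width ratio of 2.01. Length is that of the joined region, so joining favours shared regions. A wide peak of 1 diet alone could also bring a region past 5 kb. The HFD list held 247 peaks over 5 kb and the RD list 181. The counts of wider regions in this set are thus partly fixed by how it was chosen.

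Most gained and lost regions lay apart from the peaks of the other diet. Of gained regions 28.7% (27.4 to 29.97) lay within 5 kb of an RD peak, and of lost regions 25.0% (23.8 to 26.3) within 5 kb of an HFD peak. At promoters under 50% repeat these shares were 16.0% (13.5 to 18.9) and 20.7% (16.3 to 25.9).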

How the data were processed

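ChIP-seq libraries of pancreatic islets from CBA mice were analysed for H3K27Me3 in RD and HFD (4 of 15 samples, 2 replicates each). The H3K27Ac lists were used for positions and for the heights given at named promoters, and the HFD-O304 list for positions alone. Per the authors, 50 bp paired-end reads were mapped to GRCm38 with bowtie2 and the replicates merged. Per the file headers, broad peaks were called with MACS 2.1.2 in paired-end mode at a q cutoff of 0.01, without input control or local background, keeping 1 fragment per position. For each peak the deposited lists give a mean pileup (a coverage signal), a fold enrichment (a ratio) and −log10 q. The 3 input samples were not used here. The RD list rests on 74870300 and the HFD list on 54166902 kept fragments, which sets the lowest heights each could hold. The methods text gives a looser cutoff than the headers, and the headers were used. Listed genes outside chromosomes 1 to 19 or without a protein-coding start were not analysed here.

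Pileup was divided by kept fragments × fragment size (219 bp in RD, 223 bp in HFD) / 1.87 Gb. Peaks on chromosomes 1 to 19 were joined at an overlap of 1 bp, and height in a region is the length-weighted mean. Promoters were taken within 1000 bp of protein-coding starts of GENCODE M21, and repeats from the soft-masked GRCm38.p6 reference, with a limit of 50%. Changes were called at 1.5-fold, and strong peaks at a −log10 q of 5. Shares have 95% Wilson intervals (scipy). Named genes were those of the gene lists, the 8 highest promoters gained and lost, the 6 largest and smallest ratios, the 5 longest regions of each kind and the genes the study discussed. With merged replicates there was no test between diets. The joining and promoter counts were checked on simulated lists. Members and lists were chosen with earlier results of these data known. Some named items are not reported here.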

Additional observations from a re-analysis of the deposited data

How the results depend on the processing

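No paired analysis was possible because each diet has a single peak list, made from merged replicates, and leaving a replicate aside was likewise not possible. Of 80 recomputed counts 53 stayed within 1.5 times the reported one. With both lists limited to 3.10, regions numbered 7709 gained and 1532 lost, promoters 1378 gained, 53 lost and 681 in both, and 81 shared regions were higher. With a −log10 q of at least 5, regions numbered 1322, 1851 and 2966 (gained, lost, both), promoters 352, 85 and 188, and 51 shared regions were higher and 2 lower. Without repeat-rich peaks, regions numbered 2355, 1501 and 3173, with 54 higher and 0 lower. A setting without peaks overlapping H3K27Ac of the same diet was chosen after seeing the data. Under it regions in both numbered 5437, promoters in both 860 and higher regions 70, and gained (4695) fell below lost (5821) regions. It removes peaks diet by diet, so a call in both diets can turn into gained or lost. Division by the median ratio gave 25 higher and 31 lower, the deposited fold enrichment 74 higher, and a fold of 2 gave 1 and 0. The cause was not tested, save that each limit leaves fewer peaks. A limit also turns a call in both diets into gained or lost where the peak of 1 diet falls below it. Gained exceeded lost promoters under all 9 alternatives run for promoters, from 1.36 to 26.0 times. The 26.0 came from the limit of 3.10, which removes RD peaks alone and could only raise that ratio. The next highest was 4.14, at a −log10 q of at least 5. Equal list sizes, X and Y, overlap of 50%, joined gaps, other promoter windows and the removal of peaks of 10 or more left region and promoter counts within 1.5 times. Depth limits the weakest peaks, since the RD list reached 2.74 and the HFD list 3.10.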

Other observations

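The sex chromosomes stood outside the comparison. On chromosome X, 949 regions were formed, of which 535 were called in both diets, 182 in HFD alone and 232 in RD alone. On chromosome Y there were 182 regions, 85 in both, 45 in HFD alone and 52 in RD alone.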
